A study of Mus musculus with 18 samples.

Results

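The question here is whether macrophages grown from the marrow of mice given 1xLPS answered lipopolysaccharide (LPS) in culture differently from macrophages grown from the marrow of mice given PBS. RNA of bone-marrow-derived macrophages from C57BL/6J mice, labelled wild type, was sequenced in 4 groups of 3 libraries. 1xLPS_LPS held cells of the 1xLPS arm stimulated with LPS in vitro and 1xLPS_NO the same arm unstimulated, while PBS_LPS and PBS_NO were the stimulated and unstimulated cells of the PBS arm. They are 12 of the 18 libraries of the series, chosen by the arm in the title, and every gene of the count table was considered. Of 43280 gene symbols, 14158 passed the filter of at least 1 CPM (counts per 1000000 of the scaled library total) in at least 3 of the 18 libraries and were tested. The other 6 libraries, of a 4xLPS arm, entered the estimate of the spread and were used to choose LPS-regulated genes. Doses, intervals, the age and sex of the mice, the length of the in vitro stimulation and whether each library came from another mouse have no entry in the labels used here. The spread behind each p-value is therefore that among libraries of a group and may be technical.

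The treatment tag of 6 of the 12 libraries names another arm than the title, since the libraries titled PBS are tagged 4xLPS. The columns of the count table carry the arm and a sample number, and in 18 of 18 columns that arm equals the treatment tag of the sample bearing the same number. The arms are therefore given by title and column name. Were the tags of the same-titled samples right instead, the libraries called PBS here would be those of the 4xLPS arm.

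LPS is a component of the outer membrane of Gram-negative bacteria. Macrophages bind it with CD14, MD-2 and Toll-like receptor 4, and the receptor signals through MyD88 and TRIF. MyD88 leads to the release of NF-kappaB from its inhibitors and to early cytokine genes, and TRIF leads to interferon beta and a later wave of interferon-induced genes. Cells that met LPS before can answer a later dose less (tolerance) or more (priming), and inhibitors that NF-kappaB itself induces, such as the product of Nfkbia, limit the signal. The cultures compared here were grown from marrow precursors after the in vivo injection.

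Total counts of the 12 libraries lay between 9296453 (1xLPS_NO library 3) and 54050622 (PBS_LPS library 3), where 3 counts are worth 0.323 and 0.0555 CPM. The first principal component held 50.2% of the variance and separated stimulated from unstimulated libraries in all arms. The second held 14.4%, and 1xLPS_NO library 1 (-66.6) and 1xLPS_LPS library 3 (-55.8) stood farthest out on it, both of the 1xLPS arm. Values without these 2, called the libraries that stood apart, are given beside the results. Macrophage markers such as Adgre1, Csf1r, Cd68 and Lyz2 were high in every library, with 23 of 24 identity genes tested. Ly6g of neutrophils and Cd3e of T cells reached at most 0.0359 and 0.211 CPM in any library, but other markers on their lists were present. Summed levels in single libraries were 224 to 345 CPM for neutrophil genes (14 of 18 tested). They were 76.0 to 230 CPM for T and NK cell genes (2 of 12, Cd4 and Il7r). For B cell genes (2 of 9, Blnk and Ebf1) they were 98.4 to 311 CPM. Bulk RNA does not tell which cells held these transcripts. Stromal genes were present, with a summed level of 4143 to 8167 CPM in 1xLPS_LPS, 3575 to 4977 in 1xLPS_NO, 3751 to 4925 in PBS_LPS and 2359 to 3063 in PBS_NO over 14 of 16 genes tested. Their part in the results was not tested. In bulk RNA, fewer cells of a type and less RNA per cell cannot be told apart.

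The quantity tested was the difference of response, the log2 LPS response (stimulated over unstimulated) of the 1xLPS arm minus that of the PBS arm. A negative value on a gene that LPS raises means a smaller rise after 1xLPS. Throughout, a larger or smaller response means only a difference above or below 0. On a gene that LPS lowers in both arms, a value below 0 is a deeper fall after 1xLPS, so smaller need not mean weaker. No single gene passed the test: 0 of 14158 genes (0%) had an adjusted p under 0.05 with edgeR's quasi-likelihood test, and the smallest adjusted p was 0.350. Unadjusted p under 0.05 was reached by 597 genes with a larger response after 1xLPS (4.22%) and by 557 with a smaller one (3.93%). Without PBS_LPS library 1 edgeR called 17 genes, 15 with a larger and 2 with a smaller response (Rpl35 and Fbxo6), without 1xLPS_NO library 2 it called 1, Nfkbia, and without the low-count filter it called 144. limma voom called 0 genes, and DESeq2 called 24, 11 with a larger and 13 with a smaller response. The median difference over all tested genes was -0.012. In the median gene the 95% interval reached 0.72 log2 (1.65-fold) to either side of the estimate. The whole interval lay within 2-fold of no difference for 6898 genes (48.7%). Between the arms directly, 0 of 14158 genes (0%) were called in 1xLPS_NO against PBS_NO, with 1090 higher and 579 lower at an unadjusted p under 0.05. In 1xLPS_LPS against PBS_LPS 0 (0%) were called, with 680 higher and 405 lower at that p. In the authors' deposited table of verdicts both of these comparisons are entered as without differential expression and the LPS response of each arm as large.

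Genes that LPS raises or lowers were chosen in the 4xLPS arm, whose 6 libraries do not enter the difference of response. There, 299 genes (2.11% of those tested) rose at least 4-fold and 123 (0.869%) fell at least 4-fold, with an adjusted p under 0.05. Of the 299 that rose, 231 had a smaller response after 1xLPS than after PBS (77.3%, beside 51.2% of all tested genes), and their median difference was -0.39. At an unadjusted p under 0.05, 49 of them were smaller (beside 3.93% of all tested genes) and 2 larger (beside 4.22%), and none was called. The 60 genes that rose at least 16-fold had a median of -0.75, with 54 below 0, and the 239 that rose 4-fold to 16-fold had a median of -0.31 (-0.18 without 1xLPS_LPS library 3). The 11478 genes not called in the 4xLPS arm had a median of 0.0061. Among the 123 that fell, 80 lay above 0 (beside 48.8% of all tested genes), that is with a smaller fall after 1xLPS, and the median was 0.18. Without 1xLPS_NO library 1 and 1xLPS_LPS library 3 the medians were -0.30 for the 299 genes, -0.57 for the 60 and 0.037 for the 123. Without 1xLPS_LPS library 3 alone they were -0.23, -0.51 and -0.040, so the value for the genes that fell turned sign.

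Across the 295 risen genes with reads in all 4 groups, the response of the 1xLPS arm followed that of the PBS arm (Pearson's r = 0.916 across genes, which are not independent replicates; the 2 responses share no library). The median ratio of the log2 responses, 1xLPS over PBS, was 0.882, and 230 genes (78.0%) lay closer to 0 after 1xLPS. For the 123 fallen genes r was 0.701, the median ratio 0.929, and 80 (65.0%) lay closer to 0 after 1xLPS. None of these single-gene differences passed the adjustment, so the count describes the direction of many small differences that share the same 12 libraries. The share of all tested genes that lay closer to 0 after 1xLPS was not counted.

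**Figure D1:**
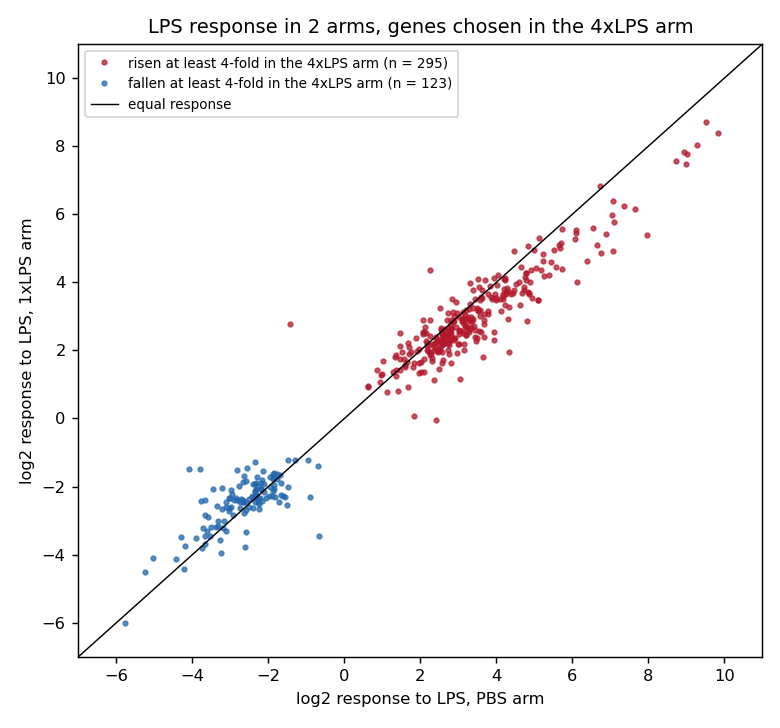
Each point is a gene that rose (red, n = 295) or fell (blue, n = 123) at least 4-fold with LPS in the 4xLPS arm; the y axis is its log2 LPS response in the 1xLPS arm and the x axis that in the PBS arm, with the line of equal response. Most red points lie under the line (230 of 295 closer to 0 after 1xLPS), and the median difference was -0.75 for the 60 genes that rose at least 16-fold in the 4xLPS arm. The share of all tested genes closer to 0 after 1xLPS was not counted.

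NF-kappaB is a dimer of Rel-family subunits (Rela, Relb, Rel, and the products of Nfkb1 and Nfkb2) held inactive by inhibitors of the I-kappaB family (Nfkbia, Nfkbib, Nfkbie) and tuned by the nuclear members Nfkbid, Nfkbiz and Bcl3. Many of these genes are themselves NF-kappaB targets. All 11 were tested, and 10 had a smaller LPS response after 1xLPS (90.9%, beside 51.2% of all tested genes). Their median difference was -0.63 beside -0.012 over all tested genes. At an unadjusted p under 0.05, 7 of 11 were smaller (beside 3.93% of all tested genes) and 0 larger (beside 4.22%), and none was called after adjustment. The median was -0.77 to -0.49 over the 21 alternatives and -0.57 without 1xLPS_NO library 1 and 1xLPS_LPS library 3. A link between the letters that NF-kappaB dimers bind and the shared direction was not tested. The promoters of 3 members, named after values were seen, are printed so that these letters can be read in them. They are the 250 bases before the gene's start in RefSeq (GRCm38.p6), 5′ to 3′ on the gene's strand, with GGG, any 3 bases and TTCC, on either strand, in capitals:
Nfkbia, chr12:55492648-55492897, minus strand: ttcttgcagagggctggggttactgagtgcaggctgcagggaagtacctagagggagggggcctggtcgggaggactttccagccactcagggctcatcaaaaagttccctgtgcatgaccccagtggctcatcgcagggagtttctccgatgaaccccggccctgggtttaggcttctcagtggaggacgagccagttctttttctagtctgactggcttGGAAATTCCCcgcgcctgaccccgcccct
Nfkbie, chr17:45555450-45555699, plus strand: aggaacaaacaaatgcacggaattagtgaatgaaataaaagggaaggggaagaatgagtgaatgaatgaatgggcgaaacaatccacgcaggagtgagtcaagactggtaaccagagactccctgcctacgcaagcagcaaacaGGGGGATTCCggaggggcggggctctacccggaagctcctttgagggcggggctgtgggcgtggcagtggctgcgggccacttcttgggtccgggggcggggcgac
Nfkb2 (the most 5′ of its starts), chr19:46304487-46304736, plus strand: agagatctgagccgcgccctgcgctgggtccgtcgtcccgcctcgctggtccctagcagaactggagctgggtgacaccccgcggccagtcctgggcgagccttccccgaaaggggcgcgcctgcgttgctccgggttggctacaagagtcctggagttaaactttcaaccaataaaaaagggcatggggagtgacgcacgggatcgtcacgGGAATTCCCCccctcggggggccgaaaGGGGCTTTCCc

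Nfkbia holds 1 match, 29 to 20 bases before its start, and Nfkbie 1, 106 to 97 bases before it. Nfkb2 holds 2, which do not overlap, 38 to 29 and 11 to 2 bases before the start shown. The same window of Rab20 and of Tnf, not printed, holds 0, and the windows before the other Nfkb2 starts, also not printed, hold 1 each. In the shares that follow, a gene counts if the window before any of its starts holds the letters. Of the 8 NF-kappaB genes with a promoter in the table, 5 hold the letters (62.5%), against 570 of 9233 tested genes with one (6.17%) and 1434 of all 27025 (5.31%). Among the 60 genes that rose at least 16-fold in the 4xLPS arm, 8 of the 43 with a promoter hold them (18.6%), and among the 299 that rose at least 4-fold 27 of 217 (12.4%). The CXC chemokine genes hold them in 4 of 6 promoters, the CC chemokine genes in 1 of 6 and the inflammatory cytokine genes in 3 of 13. A match describes letters in this window and not a bound site.

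Nfkbia, which encodes I-kappaB alpha, had the clearest difference of the family. It lies on chromosome 12, positions 55489410 to 55492647 of GRCm38, and its transcript shares no 50-base stretch with another gene. Unstimulated cells held 172, 106 and 168 CPM in 1xLPS_NO and 90.5, 84.8 and 81.2 CPM in PBS_NO, so every 1xLPS_NO library lay above every PBS_NO library. Stimulated cells held 682, 691 and 769 CPM in 1xLPS_LPS and 829, 966 and 1027 CPM in PBS_LPS, and here every 1xLPS_LPS library lay below every PBS_LPS library. Nfkbia was among the genes picked by the smallest p of the difference of response, a choice that favours such an order. How many of all tested genes have this order was not counted. The log2 LPS response was 2.27 ± 0.18 in the 1xLPS arm and 3.46 ± 0.19 in the PBS arm. The difference of response was -1.19 ± 0.25 (SE), with an unadjusted p of 0.000128 and an adjusted p of 0.350, with a 95% interval of -1.71 to -0.68. It kept its sign under all 21 alternatives (-1.39 to -1.05), and it was called by DESeq2 (adjusted p = 0.00356) and by edgeR without 1xLPS_NO library 2, which held the least Nfkbia of its group (adjusted p = 0.0388). It was also called by edgeR without the low-count filter (adjusted p = 0.0285). With the 12 libraries of the 4 groups fitted alone, its adjusted p was 0.957 (edgeR). Without the 2 libraries that stood apart it was 0.304 (edgeR).

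Nfkbia was the single member whose libraries separated both at rest and, in the other order, after LPS. Over the 11 genes the median log2 difference between arms was 0.42 at rest (1xLPS_NO over PBS_NO) and -0.16 after LPS (1xLPS_LPS over PBS_LPS), neither called for any member. Their summed level was 1044, 785 and 1087 CPM in 1xLPS_NO against 779, 687 and 697 CPM in PBS_NO, and 3507, 4145 and 3712 CPM in 1xLPS_LPS against 4483, 4744 and 4150.0 CPM in PBS_LPS. Every 1xLPS_NO sum lay above every PBS_NO sum and every 1xLPS_LPS sum below every PBS_LPS sum, but this rested on Nfkbia. Without it the sums were 872, 679 and 919 CPM in 1xLPS_NO against 689, 602 and 616 CPM in PBS_NO, and 2824, 3454 and 2943 CPM in 1xLPS_LPS against 3655, 3779 and 3123 CPM in PBS_LPS, and the arms overlapped in both states.

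Nfkb2, which encodes the p100 precursor of p52, held 520.1, 689.7 and 625 CPM in 1xLPS_LPS and 701, 728 and 619 CPM in PBS_LPS. At rest it held 134, 107 and 159 CPM in 1xLPS_NO and 95.6, 84.2 and 80.1 CPM in PBS_NO. Its 1xLPS_NO libraries lay above all PBS_NO libraries, an order not counted over all tested genes, while the stimulated groups overlapped. Its difference of response was -0.78 ± 0.22 (SE), with an unadjusted p of 0.00251 and an adjusted p of 0.383, and 14.9% of its 50-base stretches also occur in another gene. Nfkbib, another inhibitor, held 56.8, 30.2 and 46.3 CPM in 1xLPS_NO and 30.8, 23.7 and 24.6 CPM in PBS_NO, and 1 of the 1xLPS_NO libraries lay within the range of PBS_NO. After LPS it held 149, 181 and 161 CPM in 1xLPS_LPS and 189.6, 192 and 150.0 CPM in PBS_LPS, and its difference of response was -0.86 ± 0.27 (SE), with an unadjusted p of 0.00492 and an adjusted p of 0.417. Relb, the partner of p52, showed log2 differences between arms of 0.50 ± 0.14 for 1xLPS_NO over PBS_NO and -0.13 ± 0.14 for 1xLPS_LPS over PBS_LPS, and a difference of response of -0.63 ± 0.20 (SE), with an unadjusted p of 0.00553 and an adjusted p of 0.424.

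Nfkbie held 337, 402 and 338 CPM in 1xLPS_LPS and 415, 402 and 367 CPM in PBS_LPS, with overlapping groups, and 45.7, 38.7 and 48.4 CPM in 1xLPS_NO and 32.9, 37.8 and 28.7 CPM in PBS_NO at rest. Its difference of response was -0.55 ± 0.20 (SE), with an unadjusted p of 0.0122 and an adjusted p of 0.501. Nfkbiz, which encodes the nuclear inhibitor needed for secondary targets such as Il6, had its wider gap after stimulation, with 240.1, 227 and 101 CPM in 1xLPS_LPS and 381, 378 and 230.2 CPM in PBS_LPS. At rest it held 12.2, 24.6 and 22.3 CPM in 1xLPS_NO and 15.8, 15.9 and 17.2 CPM in PBS_NO, and those groups overlapped. Its difference was -1.07 ± 0.42 (SE), with an unadjusted p of 0.0194 and an adjusted p of 0.538. Nfkb1, the p105 precursor of p50, had a difference of -0.58 ± 0.23 (SE), with an unadjusted p of 0.0216 and an adjusted p of 0.542. The other 4 members had unadjusted p over 0.05: -0.28 ± 0.24 for Rela, -0.44 ± 0.28 for Bcl3, -0.69 ± 0.62 for Nfkbid and 0.093 ± 0.33 for Rel, the single member above 0.

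**Figure D2:**
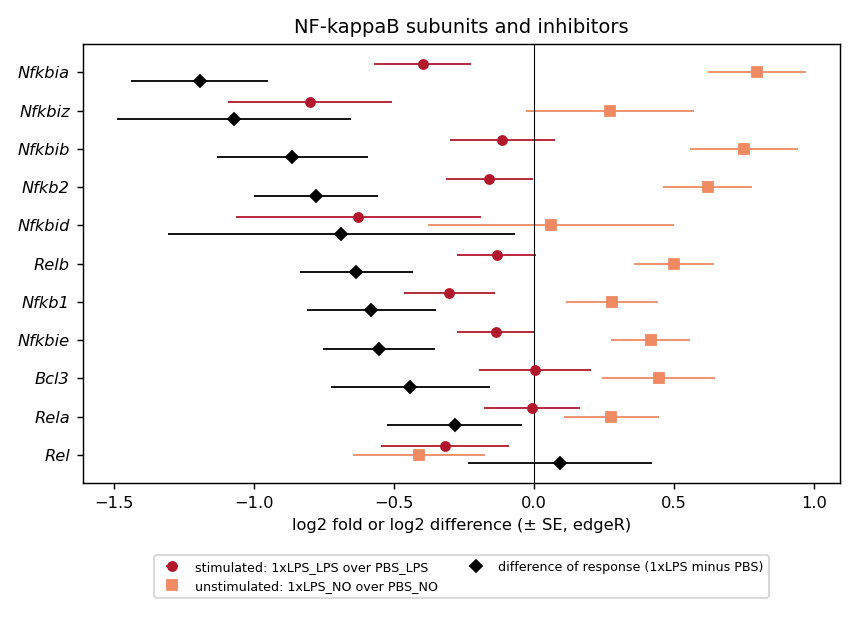
Log2 values with their standard error (edgeR) for the 11 NF-kappaB genes: 1xLPS_LPS over PBS_LPS (red circles), 1xLPS_NO over PBS_NO (orange squares) and the difference of response, which is the first minus the second (black diamonds). Orange squares lie right of 0 for 10 of 11 genes and black diamonds left of 0 for 10 of 11; Rel is the exception in both.

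LPS also induces inhibitors outside this family. The negative feedback list (26 of 27 genes tested) had a median of -0.28. At an unadjusted p under 0.05, 5 members were smaller (beside 3.93% of all tested genes) and 0 larger (beside 4.22%). Socs3, an inhibitor of JAK-STAT signalling, held 188, 213 and 176 CPM in 1xLPS_LPS and 304, 288 and 183 CPM in PBS_LPS, and PBS_LPS library 3 lay among the 1xLPS_LPS libraries. At rest it held 22.5, 12.3 and 22.98 CPM in 1xLPS_NO and 9.06, 12.4 and 10.0 CPM in PBS_NO, and 1xLPS_NO library 2 lay at the PBS_NO level. The log2 LPS response was 3.33 ± 0.23 in the 1xLPS arm and 4.62 ± 0.25 in the PBS arm, and the difference was -1.29 ± 0.31 (SE), with an unadjusted p of 0.000531 and an adjusted p of 0.350. Other members at that p were Cish, the SOCS-family inhibitor of STAT5 (-1.55 ± 0.51), the TLR inhibitor Irak3 (-0.57 ± 0.24), the phosphatase Ptpn1 (-0.60 ± 0.20) and Tnip1, a partner of A20 (-0.52 ± 0.24). Tnfaip2, an LPS-induced gene and the most abundant of the list, had -0.44 ± 0.22, and the list's median was -0.23 without the 2 libraries that stood apart and -0.41 (without 1xLPS_LPS library 2) to -0.15 (without 1xLPS_NO library 1) with 1 library left out.

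The list of the LPS receptor and its adaptors (16 genes) had a median of -0.16, and Myd88, the adaptor of the early arm (-0.57 ± 0.19), and Ikbke, a kinase of the interferon arm (-0.74 ± 0.31), were smaller at an unadjusted p under 0.05. Of all tested genes 3.93% were smaller at that p. Tlr4 itself differed by 0.075 ± 0.32, with 36.8 ± 4.49 CPM in 1xLPS_LPS, 33.0 ± 15.0 in 1xLPS_NO, 45.5 ± 7.46 in PBS_LPS and 43.1 ± 5.05 in PBS_NO (SD, n = 3 each). The coreceptor gene Cd14 differed by -0.48 ± 0.44, with mean log2 LPS responses of 2.58 ± 0.33 in the 1xLPS arm and 3.06 ± 0.34 in the PBS arm. The 95% interval for Tlr4 was -0.59 to 0.74. The list's median was -0.21 (without 1xLPS_LPS library 2) to -0.025 (without PBS_LPS library 1) with 1 library left out.

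Cytokine genes carry the response to other cells. Of 20 in the list 19 were tested. At an unadjusted p under 0.05, 4 were smaller (beside 3.93% of all tested genes) and 0 larger (beside 4.22%). Below 0 lay 16 (84.2%, beside 51.2% of all tested genes), and the median was -0.82. Without Csf2, Il12b and Il23a, which have no read in a whole group, it was -0.77. Their median log2 difference between arms was -0.050 at rest and -0.83 after LPS, beside 0.42 and -0.16 for the NF-kappaB genes; this contrast between the lists was not tested. The list's median was -0.70 without the 2 libraries that stood apart and -0.30 without 1xLPS_NO library 2.

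Tnf, the early cytokine that drives much of the inflammatory response, held 2334, 2031 and 973 CPM in 1xLPS_LPS and 4498, 4223 and 2239.7 CPM in PBS_LPS. Library 3 was the lowest of both groups, and PBS_LPS library 3 lay between the 1xLPS_LPS libraries while the other 2 of its group lay above them all. At rest Tnf held 27.2, 20.1 and 22.98 CPM in 1xLPS_NO and 21.5, 23.6 and 21.6 CPM in PBS_NO, and those groups overlapped. The log2 LPS response was 6.25 ± 0.33 in the 1xLPS arm and 7.36 ± 0.35 in the PBS arm, and the difference was -1.11 ± 0.38 (SE), with an unadjusted p of 0.00917 and an adjusted p of 0.453. It was -1.36 to -0.70 over the alternatives. Il1b, which encodes a fever-inducing cytokine processed by the inflammasome, held 77.5, 136 and 77.6 CPM in 1xLPS_LPS and 365, 205 and 88.4 CPM in PBS_LPS, and its difference was -1.48 ± 0.69 (SE), with an unadjusted p of 0.046 and an adjusted p of 0.604; without PBS_LPS library 1 it was -0.90. Il1rn, its natural antagonist, differed by -0.72 ± 0.23 and Tnfsf9, a costimulatory ligand, by -0.84 ± 0.37, both at an unadjusted p under 0.05. Csf1, the macrophage growth factor and one of the most abundant genes of the list, differed by -0.12 ± 0.40.

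Il6 was low in all groups, at 2.52, 3.13 and 0.110 CPM in 1xLPS_LPS and 14.2, 6.96 and 2.16 CPM in PBS_LPS, and its difference of -1.89 ± 1.72 (SE) had an adjusted p of 0.812. The Il6 difference was -2.43 (without 1xLPS_LPS library 2) to -0.89 (without 1xLPS_NO library 2) with 1 library left out. Il12b, the shared chain of interleukins 12 and 23, held 17.3, 63.7 and 9.23 CPM in 1xLPS_LPS and 83.8, 61.3 and 16.0 CPM in PBS_LPS. It had no read in any PBS_NO library, where 3 counts are worth 0.0900 to 0.115 CPM, so no fold is given. Il10 and Ifnb1 did not pass the filter and reached at most 1.20 and 0.371 CPM in any of the 12 libraries.

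Most chemokine genes also lay below 0. In the CC list 7 of 8 tested genes (of 11) lay below 0, with a median of -0.55, and in the CXC list 7 of 8 (of 9), with a median of -1.17. Either share is 87.5%, beside 51.2% of all tested genes. At an unadjusted p under 0.05, 2 CC and 3 CXC genes were smaller (beside 3.93% of all tested genes) and none larger (beside 4.22%). Ccl3, an inflammatory chemokine, held 864, 761 and 412 CPM in 1xLPS_LPS and 1790.5, 1523 and 781 CPM in PBS_LPS, and only library 3 of PBS_LPS lay in the range of the 1xLPS_LPS libraries. At rest it held 17.2, 12.3 and 18.0 CPM in 1xLPS_NO and 11.1, 11.1 and 12.5 CPM in PBS_NO. Its difference was -1.45 ± 0.39 (SE), with an unadjusted p of 0.00156 and an adjusted p of 0.357. Ccl9 differed by -0.68 ± 0.28 and Ccl5, a late chemokine, by -1.07 ± 0.88. Ccl5 gave -1.64 (without 1xLPS_LPS library 2) to -0.54 (without 1xLPS_LPS library 3) with 1 library left out.

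Cxcl2, a neutrophil attractant, held 1922, 1518 and 570.0 CPM in 1xLPS_LPS and 3436, 3658 and 1359 CPM in PBS_LPS, and its difference was -1.45 ± 0.54 (SE), with an unadjusted p of 0.0159 and an adjusted p of 0.522. Cxcl1, its close relative, differed by -1.23 ± 0.77 (-0.72 without PBS_LPS library 1), the interferon-induced Cxcl10 by -1.26 ± 0.52 and the membrane-bound Cxcl16 by -0.49 ± 0.19. The CXC median depended on the libraries that stood apart and was -0.47 without both, while that of the CC list was -0.42. With 1 library left out the medians were -1.47 (without PBS_LPS library 3) to -0.62 (without 1xLPS_NO library 1) for the CXC list and -0.88 (without 1xLPS_LPS library 2) to -0.35 (without 1xLPS_LPS library 3) for the CC list.

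**Figure D3:**
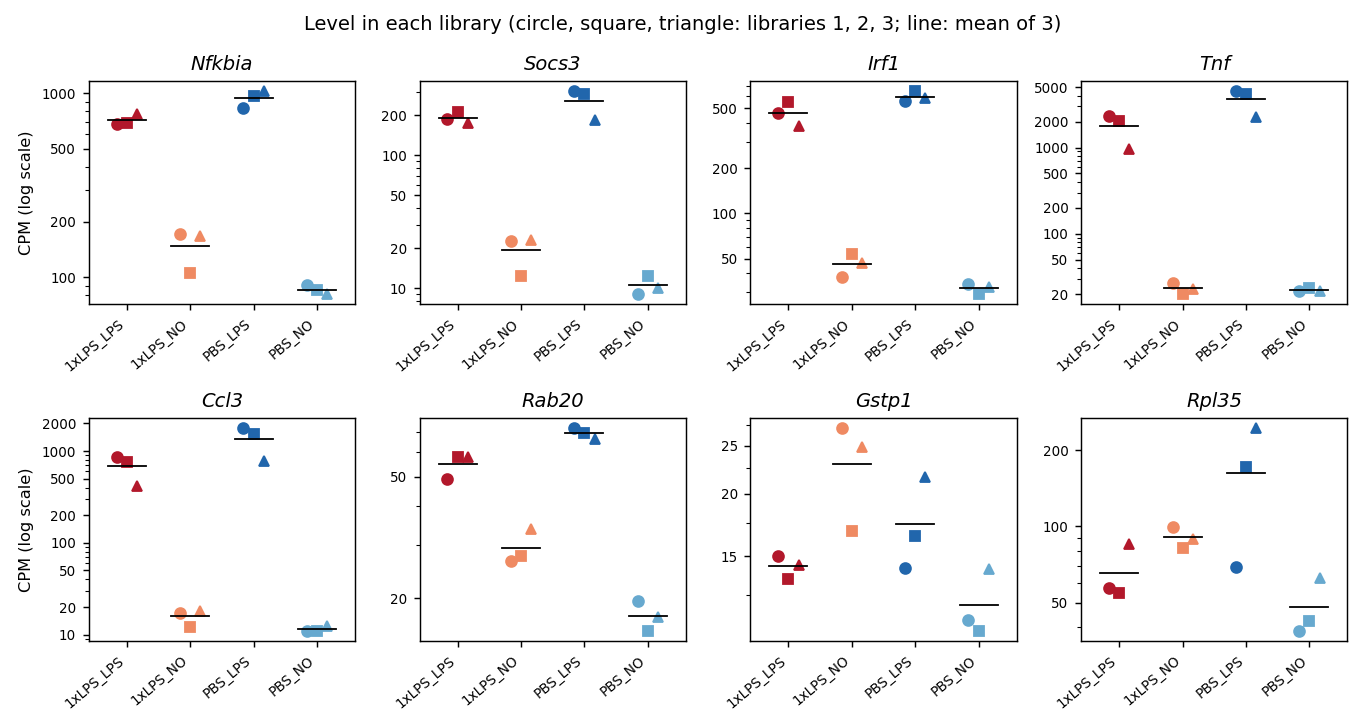
CPM on log axes in each of the 12 libraries for 8 genes, by group from 1xLPS_LPS to PBS_NO; circles, squares and triangles are libraries 1, 2 and 3 and lines are means of 3. Nfkbia, Socs3, Irf1 and Rab20 have higher means in 1xLPS_NO than in PBS_NO and lower means in 1xLPS_LPS than in PBS_LPS, while for Tnf and Ccl3 the wider gap is after stimulation.

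Effector genes of the later response had a median of -0.68, with 18 of 19 tested genes (of 20) below 0 and 5 smaller at an unadjusted p under 0.05. Over all tested genes 51.2% lay below 0 and 3.93% were smaller at that p. Irg1 (now Acod1), the enzyme that makes itaconate, held 2299.7, 3421 and 1784 CPM in 1xLPS_LPS and 4243, 3307 and 2092 CPM in PBS_LPS, with overlapping groups, and 6.47, 5.61 and 5.90 CPM in 1xLPS_NO and 4.36, 4.58 and 4.16 CPM in PBS_NO at rest. Its difference was -0.82 ± 0.35 (SE), with an unadjusted p of 0.0326 and an adjusted p of 0.577. Saa3, an acute-phase serum amyloid gene of macrophages, had the widest difference of the list at -2.12 ± 0.56, with log2 LPS responses of 4.01 in the 1xLPS arm and 6.13 in the PBS arm. Ptges, a prostaglandin E synthase, differed by -1.22 ± 0.46, Plaur, the urokinase receptor gene, by -0.74 ± 0.24 and Ccrl2, an atypical chemoattractant receptor gene, by -0.66 ± 0.27. Nos2, which encodes the inducible nitric oxide synthase, differed by -1.17 ± 1.02, and by -2.83 (without PBS_NO library 1) to -0.67 (without PBS_NO library 3) with 1 library left out. Arg1 did not pass the filter. The list's median was -0.55 without the 2 libraries that stood apart.

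Antiviral genes induced by type I interferon (33 of 35 tested) had a median of -0.45, with 27 below 0 (81.8%, beside 51.2% of all tested genes). At an unadjusted p under 0.05, 5 were smaller (beside 3.93% of all tested genes) and 0 larger (beside 4.22%). Those 5 were Isg20, an exonuclease (-1.37 ± 0.46), Oasl1 (-1.39 ± 0.58), Oas3, an oligoadenylate synthetase (-0.89 ± 0.37), Rtp4 (-0.91 ± 0.42) and Ifi35 (-0.70 ± 0.29). Ifit1, which binds viral RNA, differed by -0.61 ± 0.41, Parp14 by -0.24 ± 0.46 and the viral tether Bst2 by -0.45 ± 0.29. Without PBS_LPS library 1 the list's median was -0.10, without 1xLPS_LPS library 3 it was -0.12, and without the 2 libraries that stood apart -0.39.

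Irf1, a transcription factor induced by NF-kappaB and interferon signalling, had the same order of groups as Nfkbia. It held 37.7, 53.3 and 46.7 CPM in 1xLPS_NO and 33.9, 29.1 and 32.6 CPM in PBS_NO at rest, every 1xLPS_NO library above every PBS_NO library. After LPS it held 466, 547 and 382 CPM in 1xLPS_LPS and 558, 648 and 583 CPM in PBS_LPS, every 1xLPS_LPS library below every PBS_LPS library. The share of all tested genes with this order was not counted. The log2 LPS response was 3.34 ± 0.18 in the 1xLPS arm and 4.22 ± 0.18 in the PBS arm, and the difference was -0.88 ± 0.23 (SE), with an unadjusted p of 0.00118 and an adjusted p of 0.350. Among the other interferon factors and STATs (19 of 21 tested, median -0.15), Irf9, the DNA-binding part of ISGF3 (-0.64 ± 0.23), and the kinase Tyk2 (-0.53 ± 0.22) reached an unadjusted p under 0.05. Of all tested genes 3.93% were smaller at that p. Stat6 and Irf5, the most abundant of the list, differed by -0.26 ± 0.26 and -0.41 ± 0.27. The median of these factors was -0.27 (without 1xLPS_LPS library 2) to -0.10 (without 1xLPS_NO library 2) with 1 library left out.

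Interferon-inducible GTPases, which act against intracellular microbes (13 of 15 tested), had a median of -0.52 that was -0.85 (without 1xLPS_LPS library 2) to 0.14 (without 1xLPS_NO library 2) with 1 library left out. Irgm1 (-0.73 ± 0.23) and Gbp5 (-1.52 ± 0.69) were smaller at an unadjusted p under 0.05 (beside 3.93% of all tested genes). Gbp2 differed by -0.56 ± 0.52.

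In antigen presentation, the MHC class I processing list (16 genes) had a median of -0.43 and 4 genes smaller at an unadjusted p under 0.05 (beside 3.93% of all tested genes). These were the proteasome activator subunits Psme2 (-1.16 ± 0.35) and Psme1 (-0.44 ± 0.20), the nonclassical H2-T23 (-0.90 ± 0.27) and the peptide editor Tapbpl (-0.81 ± 0.27). The classical genes H2-D1 and H2-K1, by far the most abundant, differed by -0.075 ± 0.24 and -0.23 ± 0.27. In the class II list (13 genes, median -0.26) Ciita, the master activator of class II genes, differed by -1.69 ± 0.52, while Cd74, the invariant chain, differed by -0.16 ± 0.45 and the protease gene Ctss by 0.39 ± 0.29. The class I median was -0.26 and the class II median -0.64 without the 2 libraries that stood apart. With 1 library left out the class I median was -0.50 (without 1xLPS_NO library 2) to -0.26 (without 1xLPS_LPS library 3) and the class II median -0.63 (without 1xLPS_LPS library 3) to -0.10 (without 1xLPS_LPS library 1).

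Immediate early and AP-1 genes (24) had a median of -0.19, with Fosl1 (-0.87 ± 0.41), Ier3 (-0.72 ± 0.30) and Batf2 (-0.95 ± 0.41) smaller at an unadjusted p under 0.05 and Junb and Klf6 at -0.44 ± 0.31 and -0.31 ± 0.21. Oxidative stress genes (17) had a median of -0.086, near that of all genes. Srxn1, which repairs peroxiredoxins (-0.49 ± 0.19), the malic enzyme gene Me1 (-0.68 ± 0.29) and catalase, Cat (-0.58 ± 0.20), reached that p, and Sqstm1 and Hmox1, the most abundant, differed by -0.28 ± 0.24 and -0.52 ± 0.36. Amino acid and ER stress genes (17) had a median of -0.085, with Phgdh, the first enzyme of serine synthesis (-1.29 ± 0.49), and Herpud1 (-0.63 ± 0.22) at that p and Slc3a2 and Hspa5 at -0.26 ± 0.25 and -0.022 ± 0.22. Of all tested genes 3.93% were smaller at that p, the share to set beside each of these lists. The medians of the oxidative stress and amino acid lists turned sign under scaling by library totals, which moved the median of all genes to 0.070. With 1 library left out the immediate early median was -0.32 (without 1xLPS_NO library 2) to -0.026 (without 1xLPS_NO library 1), the oxidative stress median -0.24 (without 1xLPS_LPS library 1) to 0.028 (without 1xLPS_NO library 1) and the amino acid median -0.26 (without 1xLPS_NO library 2) to 0.19 (without 1xLPS_NO library 1).

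Glycolysis and hypoxia genes (24) had a median of -0.32, with 20 below 0 (83.3%, beside 51.2% of all tested genes). Pgk1 (-1.13 ± 0.47), Aldoa (-0.89 ± 0.32) and Ldha (-0.79 ± 0.35) were smaller at an unadjusted p under 0.05 (beside 3.93% of all tested genes). Pkm differed by -0.29 ± 0.39. Aldoa averaged 1416 ± 391 CPM in 1xLPS_LPS, 1975 ± 693 in 1xLPS_NO, 1692 ± 219.6 in PBS_LPS and 1271 ± 141 in PBS_NO (SD, n = 3 each), so its mean was lower with LPS in the 1xLPS arm and higher with LPS in the PBS arm. Its difference was -0.56 without 1xLPS_NO library 1. Tricarboxylic acid cycle genes (22, median -0.19) had 1 gene at that p, Ogdh (-0.43 ± 0.19), beside 3.93% of all tested genes. The abundant Glud1 differed by -0.17 ± 0.22. Nuclear-encoded respiratory chain genes (25, median -0.20) had 0 genes at that p in either direction. Atp5b and Atp5a1 differed by -0.24 ± 0.24 and -0.052 ± 0.28. These 3 medians were -0.52 (without 1xLPS_NO library 2) to -0.066 (without 1xLPS_NO library 1), -0.35 (without 1xLPS_LPS library 3) to -0.028 (without 1xLPS_NO library 1) and -0.27 (without 1xLPS_LPS library 3) to 0.091 (without 1xLPS_NO library 1) with 1 library left out.

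Transcripts of the mitochondrial genome, which encode core subunits of the respiratory chain, had the opposite sign. All 13 tested lay above 0 (beside 48.8% of all tested genes), with a median of 1.23. At an unadjusted p under 0.05, 8 were larger (beside 4.22% of all tested genes), none called. Their summed level was 4650.3, 2586 and 7352 CPM in 1xLPS_LPS and 3245, 4345 and 1790.3 CPM in 1xLPS_NO, against 4069, 2729 and 3452 CPM in PBS_LPS and 3455, 5032 and 4440.1 CPM in PBS_NO. The groups overlapped, and 1xLPS_LPS library 3 was the highest and 1xLPS_NO library 3, the shallowest library, the lowest of all 12. Without the 2 libraries that stood apart the median was 0.76, and without 1xLPS_LPS library 3 alone 0.70. mt-Atp8 and mt-Atp6, subunits of ATP synthase on overlapping reading frames, differed by 2.24 ± 0.61 and 1.93 ± 0.55, and the more abundant mt-Cytb and mt-Co1 by 1.03 ± 0.40 and 0.66 ± 0.44. Of the 50-base stretches of mt-Atp6, 99.5% also occur in other genes, and 51.1% of those of mt-Co1.

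Ribosomal protein pseudogenes, a group chosen after values were seen, had the same sign as these. Of 162 symbols with -ps tested, 159 lay above 0 (98.1%, beside 48.8% of all tested genes), and the median was 1.07. At an unadjusted p under 0.05, 73 were larger (beside 4.22% of all tested genes) and 0 smaller (beside 3.93%). Their summed level was 4048, 4046 and 4075 CPM in 1xLPS_LPS and 2107, 2660.5 and 2391 CPM in 1xLPS_NO, against 3902, 3305 and 2070.2 CPM in PBS_LPS and 2525, 3796 and 3478 CPM in PBS_NO. The 1xLPS groups did not overlap with each other, and the PBS groups did. The share of all tested genes with such a gap in the 1xLPS arm was not counted. The 30 ribosomal protein genes had a median of -0.36, which was -0.74 (without 1xLPS_LPS library 3) to 0.23 (without 1xLPS_NO library 1) with 1 library left out. 1xLPS_NO library 1 and 1xLPS_LPS library 3 had the highest share of reads on ribosomal protein genes of the 12 (4.62% and 3.72%, beside 2.02% to 2.88% in the other 10). The part of these shares in the results was not tested. The most abundant members, Rplp0 and Rps2, differed by -0.35 ± 0.40 and 0.14 ± 0.48, and reads of both and of the pseudogenes can be split between near-identical copies.

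**Figure D4:**
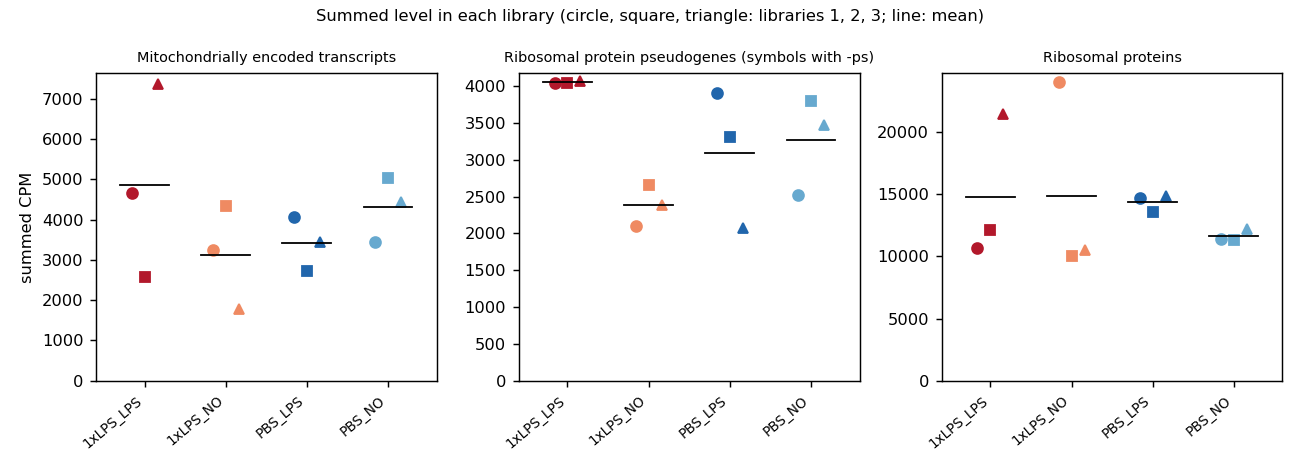
Summed CPM in each of the 12 libraries for 3 lists, by group from 1xLPS_LPS to PBS_NO, with axes from 0; circles, squares and triangles are libraries 1, 2 and 3 and lines are means of 3. The 1xLPS_LPS libraries hold 4048, 4046 and 4075 CPM of ribosomal protein pseudogenes, above all 1xLPS_NO libraries, and 2 libraries of the 1xLPS arm hold the most ribosomal protein reads.

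By the smallest p, the genes with a smaller response after 1xLPS were led by Rab20, a small GTPase of phagosomes, on chromosome 8, positions 11453518 to 11478710 of GRCm38. It held 26.5, 27.5 and 33.6 CPM in 1xLPS_NO and 19.6, 15.7 and 17.4 CPM in PBS_NO at rest, with no overlap. After LPS it held 49.3, 58.1 and 57.9 CPM in 1xLPS_LPS and 72.2, 69.3 and 66.4 CPM in PBS_LPS, again with no overlap and in the other order. Being picked by the smallest p of the difference favours such an order, and its share over all tested genes was not counted. The log2 LPS response was 0.92 ± 0.14 in the 1xLPS arm and 1.98 ± 0.15 in the PBS arm, and the difference was -1.06 ± 0.20 (SE), with an unadjusted p of 5.78e-05 and an adjusted p of 0.350; 22.9% of its 50-base stretches also occur in E230013L22Rik. Rpl35, a ribosomal protein gene, held 57.3, 54.5 and 85.6 CPM in 1xLPS_LPS and 69.5, 171 and 245 CPM in PBS_LPS, and 99.7, 82.6 and 89.6 CPM in 1xLPS_NO and 38.9, 42.6 and 62.5 CPM in PBS_NO at rest. PBS_LPS library 1 held less than the other 2 of its group. The difference was -2.22 ± 0.43 (SE), with an unadjusted p of 7.55e-05 and an adjusted p of 0.350, and 84.0% of its stretches occur in other genes.

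Gstp1, a glutathione transferase gene, held 15.0, 13.5 and 14.4 CPM in 1xLPS_LPS and 27.1, 16.8 and 24.9 CPM in 1xLPS_NO, so every stimulated library lay below every unstimulated one. In the PBS arm they lay above, at 14.2, 16.5 and 21.7 CPM in PBS_LPS and 11.1, 10.6 and 14.1 CPM in PBS_NO. The difference was -1.23 ± 0.28 (SE), with an unadjusted p of 0.000403 and an adjusted p of 0.350, and 33.7% of its stretches occur in Gstp2 or Gstp-ps. Gss, the glutathione synthetase gene, differed by -0.88 ± 0.21, Fbxo6, a ubiquitin ligase adaptor of glycoproteins, by -1.22 ± 0.29, Ubap1, an ESCRT-I subunit, by -0.78 ± 0.19 and Ampd3, an AMP deaminase, by -0.82 ± 0.20. Adjusted p was 0.350 for each of these 4. DESeq2 called Rab20, Rpl35, Nfkbia, Gstp1, Fbxo6, Socs3, Ubap1, Gss and Ampd3 among the 10.

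In the other direction, C5ar2, the second receptor for the complement fragment C5a, was the gene with a known protein and the smallest p. LPS lowered it in both arms, to 3.14, 3.52 and 2.45 CPM in 1xLPS_LPS, against 9.57, 14.7 and 13.2 CPM in 1xLPS_NO, and to 1.78, 2.21 and 1.79 CPM in PBS_LPS, against 18.3, 16.4 and 18.7 CPM in PBS_NO. The log2 LPS response was -2.03 ± 0.21 in the 1xLPS arm and -3.21 ± 0.22 in the PBS arm, a smaller fall after 1xLPS, and the difference was 1.18 ± 0.30 (SE), with an unadjusted p of 0.000884 and an adjusted p of 0.350. Pigm, a mannosyltransferase of GPI anchor synthesis, held 35.3, 33.0 and 28.9 CPM in 1xLPS_LPS and 24.8, 26.3 and 23.4 CPM in 1xLPS_NO, against 28.5, 30.2 and 24.7 CPM in PBS_LPS and 30.7, 40.5 and 32.7 CPM in PBS_NO. Its stimulated libraries lay above the unstimulated ones in the 1xLPS arm and below them in the PBS arm, and the difference was 0.70 ± 0.20 (SE), with an unadjusted p of 0.00252 and an adjusted p of 0.383. Ggact, which breaks down crosslinked glutamate-lysine, differed by 1.43 ± 0.40 and Entpd4, a Golgi nucleotidase whose transcript is shared with a near-identical copy throughout, by 1.67 ± 0.46.

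The rest of the 10 began with Rps12l2, which held 11.4, 9.18 and 7.69 CPM in 1xLPS_LPS and 3.47, 5.81 and 3.37 CPM in 1xLPS_NO, against 6.23, 6.40 and 2.90 CPM in PBS_LPS and 9.15, 10.4 and 6.89 CPM in PBS_NO. Its stimulated libraries lay above the unstimulated ones in the 1xLPS arm and below them in the PBS arm, and the difference was 1.92 ± 0.46 (SE), with an unadjusted p of 0.000579 and an adjusted p of 0.350. The others were Rps12l1 (1.43 ± 0.37), Mir692-2 (1.91 ± 0.54), a gene known by its clone name (1.63 ± 0.46) and the mt-Atp8 and mt-Atp6 transcripts described above. Rps12l1 is annotated as a processed pseudogene and, like Mir692-2, shares all of its 50-base stretches with other genes, so their reads cannot be assigned. Id1, which encodes an inhibitor of helix-loop-helix factors, had log2 LPS responses of -4.52 ± 0.41 in the 1xLPS arm and -5.26 ± 0.44 in the PBS arm and a difference of 0.74 ± 0.57 (SE), with an unadjusted p of 0.212 and an adjusted p of 0.771. The Id1 difference was 0.41 (without PBS_NO library 2) to 1.52 (without 1xLPS_NO library 1) with 1 library left out.

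Cholesterol genes (25) had a median of 0.050. Apoe, the lipid carrier, averaged 17369 ± 8776 CPM in 1xLPS_LPS, 13218 ± 3086 in 1xLPS_NO, 9654 ± 3009 in PBS_LPS and 15115 ± 3127 in PBS_NO (SD, n = 3 each). Its difference was 1.04 ± 0.43 (SE), with an unadjusted p of 0.0277 and an adjusted p of 0.569, and 0.59 without 1xLPS_LPS library 3. Fdft1, which makes squalene, differed by -0.81 ± 0.31 and Abca1 by -0.18 ± 0.30. Cell cycle genes (28) had a median of -0.19 and 0 genes at an unadjusted p under 0.05, with Pcna and Mcm6 at -0.44 ± 0.29 and 0.10 ± 0.26. Macrophage identity genes (23 tested) had a median of -0.055, with Spi1, the lineage factor PU.1, at -0.59 ± 0.23 and the abundant Gpnmb and Lyz2 at -0.0020 ± 0.28 and 0.25 ± 0.37. Of the markers of other cell types, neutrophil genes had a median of -0.21 (14 tested, Csf3r -0.21 ± 0.25 and S100a9 -0.042 ± 0.47), dendritic cell genes 0.051 (5 tested, Itgax 0.083 ± 0.26), megakaryocyte genes -0.028 (6 tested, Vwf -0.17 ± 0.28 and Pf4 0.028 ± 0.41) and stromal genes -0.10 (14 tested, Col1a1 -0.057 ± 0.34 and Col1a2 -0.18 ± 0.32). B cell, T and NK cell, erythroid and mast cell genes had 2, 2, 1 and 3 tested members, with medians of -0.11, 0.21, -0.14 and -0.48. With 1 library left out the medians were -0.12 to 0.10 for cholesterol, -0.35 to 0.14 for cell cycle, -0.25 to 0.17 for macrophage identity, -0.37 to -0.079 for neutrophil and -0.47 to 0.090 for stromal genes, so of these 5 only the neutrophil median kept its sign, and the other marker lists also turned sign except that of mast cells. Of the markers of other cell types, Mpo of neutrophils alone reached an unadjusted p under 0.05, at -1.19 ± 0.56. Among the macrophage identity genes Spi1 alone reached it.

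**Figure D5:**
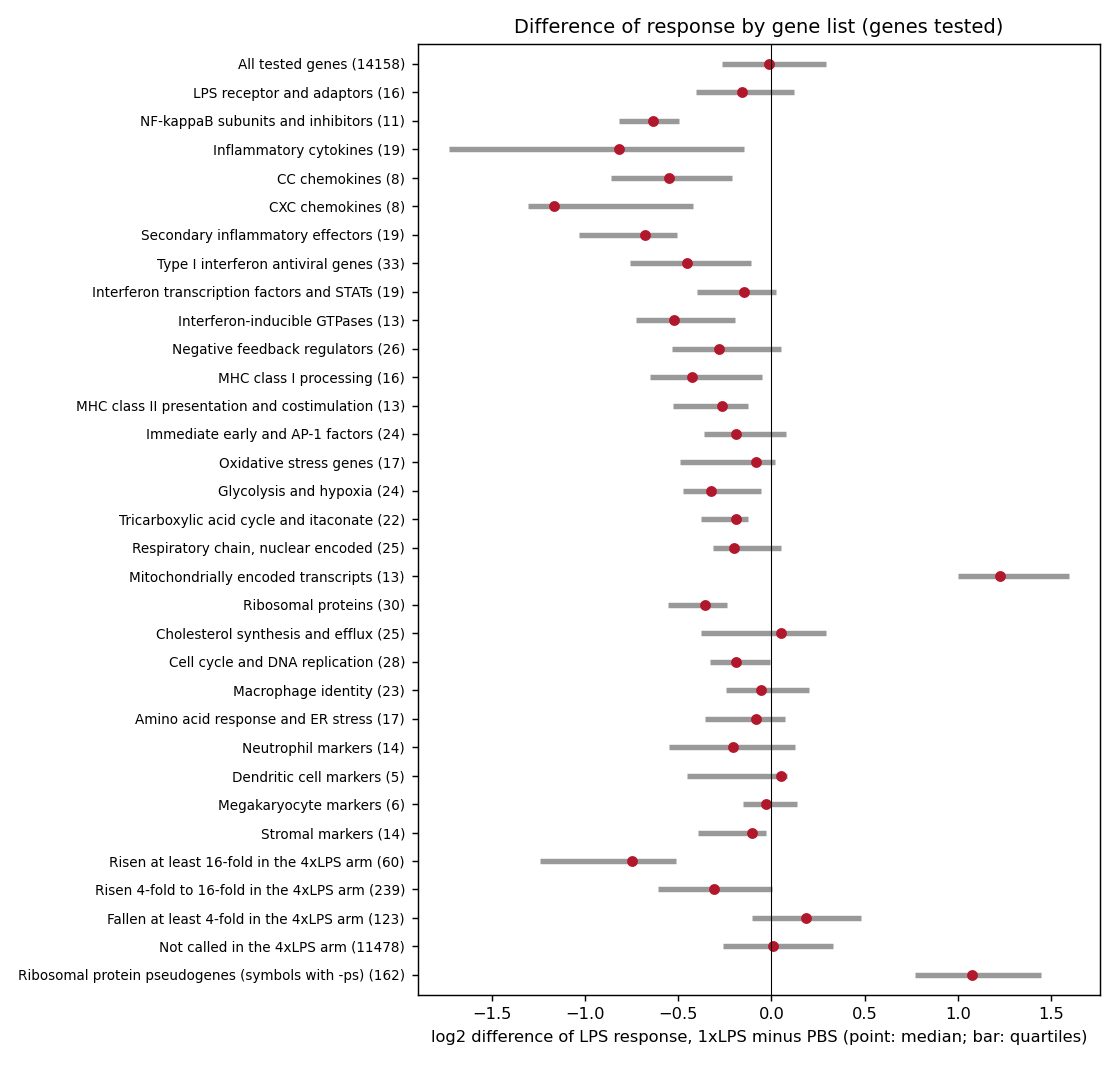
Median (point) and quartiles (bar) of the log2 difference of response, 1xLPS minus PBS, for each list with 5 or more tested genes (number in brackets) and for all 14158 tested genes. Lists of inflammatory genes lie left of 0, with CXC chemokines at -1.17 and inflammatory cytokines at -0.82, and mitochondrially encoded transcripts (1.23) and ribosomal protein pseudogenes (1.07) lie right of it.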

How the data were processed

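RNA from cultures in F12 DMEM with 10% FBS was sequenced on an Ion Proton from 500 ng of total RNA after purification of mRNA, per the labels' protocols. Per the same protocols, Torrent Suite 5.12 ran TopHat2 and then Bowtie2 against mm10, and Cufflinks gave FPKM, a unit not used here. The deposited table holds read counts per gene symbol: its sheet is named RPM, but the values are whole numbers with a different sum in each library, and they were taken as raw counts. How the authors counted, with which annotation and whether by strand, is not stated in the labels, so overlapping and antisense genes cannot be told apart. The deposited file also has a sheet of the authors' DESeq2 comparisons, each answered in words, which was copied only.

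Libraries were grouped by title, and no count column was left unused. The counts were fitted with edgeR 4.0.16 (R 4.3.3; TMM scaling, quasi-likelihood test, 1 mean per group over all 18 libraries, 12 residual degrees of freedom), with genes of at least 1 CPM in at least 3 libraries and Benjamini-Hochberg adjustment over all of them. The biological coefficient of variation was 23.9%. Intervals are 95% intervals of the fit, and floors of 3 counts cover counting error only. Alternatives were run with limma 3.58.1, DESeq2 1.42.0, 2 other scalings, no low-count filter, the 12 libraries alone, each library left out, 2 libraries left out together and 2 blocks. Libraries of a group differed by far more than sampling noise (chi-square per gene of 6.1 to 295).

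The 31 lists (557 entries, all matched, 3 under an older symbol), the contrast and the 2 libraries left out together were chosen with earlier results of these data known. Genes are named as the 10 with the smallest p in each direction (a mean of at least 5 CPM, no predicted genes or pseudogenes by symbol), a panel of 18, and the 2 most abundant members of each list. List members with an unadjusted p under 0.05, all 11 NF-kappaB genes and the pseudogene group were named after their values were seen. Gene positions are on GRCm38. Sharing was counted over 50-base stretches of GENCODE M21 transcripts, and over 10% of the stretches of Csf3r, Cxcl16, Gss, H2-D1, Irf5, Lyz2, Nfkbib, Pcna, Pkm, Rplp0, Rps2 and Sqstm1, besides those named in the text, occur in another gene. A few genes that this rule names are not reported here.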

Additional observations from a re-analysis of the deposited data

Results flagged for a closer look

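For Rps12l2, Pigm and Gstp1, every stimulated library lay on one side of every unstimulated library in the 1xLPS arm and on the other side in the PBS arm. The difference of response was 1.92 for Rps12l2 and 0.70 for Pigm, whose stimulated libraries were the higher ones in the 1xLPS arm, and -1.23 for Gstp1, whose stimulated libraries were the higher ones in the PBS arm. That difference was itself tested, with adjusted p of 0.350 for Rps12l2 and Gstp1 and 0.383 for Pigm (edgeR). The pattern was looked for among the named genes only, and its share over all tested genes was not counted. These genes were among the 10 with the smallest p in their direction, a choice that favours such a pattern.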

How the results depend on the processing

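The count of called genes was 0 as reported and stayed 0 with both other scalings, limma voom, the 12 libraries alone (smallest adjusted p 0.957, edgeR) and without the 2 libraries that stood apart. It was 144 with no low-count filter (127 larger, 17 smaller, of 36511 genes tested) and 24 with DESeq2 (11 larger, 13 smaller). Leaving out 1 library gave 0 to 17, with 17 without PBS_LPS library 1 and 1 without 1xLPS_NO library 2. The cause of these changes was not tested. The median of the genes that fell in the 4xLPS arm was -0.040 to 0.30 with 1 library left out, below 0 only without 1xLPS_LPS library 3. Of 2016 values of named genes under the alternatives, 101, of 28 of the 96 genes, turned sign and 27 became called. None that turned sign was called. Of 798 list medians 28 moved by more than the spread, among them cell cycle genes (0.14 without 1xLPS_NO library 1), macrophage identity genes (0.17 without 1xLPS_LPS library 1 and -0.35 without the 2 libraries that stood apart) and the receptor list (-0.025 without PBS_LPS library 1).

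Without the 2 libraries that stood apart the differences that turned sign were -0.090 for Tlr4, 0.0066 for Cd14, 0.45 for Csf1, -0.035 for Ctss, -0.050 for Lyz2, 0.068 for Hspa5, 0.16 for S100a9, -0.11 for Itgax, -0.011 for Il7r, -0.26 for Cd4, 0.14 for Car2, 0.36 for Gata2, 0.31 for Col1a2 and 0.41 for Col1a1. With scaling by library totals they were 0.037 for Csf1, 0.032 for Atp5a1, 0.040 for Gpnmb, 0.076 for Hspa5, 0.068 for S100a9 and 0.10 for Col1a1. Without the low-count filter they were 0.047 for Gpnmb and 0.012 for Hspa5. With limma voom they were 0.0093 for Car2 and 1.11 for Gata2. With the block within arm they were 0.024 for S100a9 and 0.17 for Gata2. With DESeq2 size factors they were -0.017 for Pf4. With DESeq2 they were -0.018 for Pf4. With 1 library left out the range was -0.14 to 0.52 for Tlr4, -0.52 to 0.23 for Csf1, -0.69 to 0.085 for Parp14, -0.18 to 0.070 for H2-D1, -0.63 to 0.20 for Cd74 and -0.62 to 0.23 for Pkm. It was -0.27 to 0.21 for Atp5a1, -0.63 to 0.16 for Rplp0, -0.31 to 0.65 for Rps2, -0.076 to 0.33 for Mcm6, -0.28 to 0.17 for Gpnmb and -0.032 to 0.59 for Lyz2. It was -0.15 to 0.19 for Hspa5, -0.24 to 0.33 for S100a9, -0.055 to 0.19 for Itgax, -0.17 to 0.86 for Ebf1, -0.33 to 0.40 for Cd4 and -0.55 to 0.28 for Car2. It was -0.61 to 0.037 for Kit, -1.23 to 2.73 for Gata2, -0.37 to 0.021 for Vwf, -0.25 to 0.44 for Pf4, -0.45 to 0.21 for Col1a2 and -0.49 to 0.20 for Col1a1. It was -0.14 to 0.33 for Rel.

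The replicate numbers were not taken to pair libraries, since not every same-numbered pair had r over 0.1: r was -0.26, 0.44 and -0.13 between stimulated and unstimulated libraries of the 1xLPS arm, -0.14, 0.06 and 0.02 in the PBS arm, and 0.03, 0.16 and 0.23 (stimulated) and 0.14, 0.29 and -0.30 (unstimulated) between the arms. With a replicate block by number 0 genes were called (1161 at an unadjusted p under 0.05), and with a replicate block within each arm 0 (1029 at that p). By level, the 95% interval lay within 2-fold of no difference for 14.0% of genes under 10 CPM and for 73.1% of those over 100 CPM.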

Other observations

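Without the low-count filter, and so outside the reported test, the acute-phase genes Saa3 and Hp were called smaller after 1xLPS by edgeR, at -2.07 (adjusted p = 2.85e-08) and -1.58 (adjusted p = 0.00229), and the lysozyme gene Lyz1 larger, at 1.44 (adjusted p = 0.000933). In that fit the chemokine genes Ccl3 (-1.40) and Cxcl2 (-1.42) were also called smaller and the transferrin gene Trf (1.49) larger. Many of the other genes it called larger were predicted genes, pseudogenes and mitochondrial transcripts. Its standard error for Saa3 was 0.30, beside 0.55 with DESeq2 (adjusted p = 0.0490), so its small p-values rest on a narrower spread. DESeq2 called Cops8, a subunit of the COP9 signalosome (-0.65, adjusted p = 0.0189), Nup88, a nuclear pore gene (-0.58, adjusted p = 0.0449), and Slc25a17, a peroxisomal carrier gene (-0.88, adjusted p = 0.0490), smaller after 1xLPS. These genes were named after their values were seen, and none passed the reported test.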
